A study of Drosophila melanogaster with 2 samples.

Results

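Cytoplasmic ribosomal proteins are the protein part of the ribosome outside the mitochondria, and their genes were examined as a group for binding of hng2 (hinge2, CG8359), a DNA-associated protein of the MADF and BESS domain family. The members were the protein-coding genes of the Release 6 (dm6) annotation whose symbol begins with RpL, RpS or RpLP followed by a digit. This gave 92 of 13968 protein-coding genes, of which 54 were assigned to the large subunit and 38 to the small subunit by symbol. The rule also takes in genes with a -like symbol. Among them are RpL24-like and RpLP0-like, which are related to yeast assembly factors. The genes were picked by symbol, but the group itself was chosen by its measured binding, since the share of these genes with a summit in the optimal list was known beforehand. Counts and signals of the members are therefore given as a description, without a test.

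Binding was mapped by chromatin immunoprecipitation and sequencing (ChIP-seq) in whole Drosophila melanogaster embryos aged 0 to 14 h, of both sexes pooled, from 1 transgenic line that stably carries CG8359 with GFP fused to its C terminus. Both samples carry the transgene and form 1 group of 2 biological replicates, numbered 2 and 3, with no control group among them. The sample descriptions name an antibody against GFP, while the antibody entry names CG8359. Chromatin was sonicated to fragments of 200 to 800 bp, and all tissues of the embryo contributed, so binding in few cells and weak binding in many cannot be told apart. The authors' optimal list, which holds the peaks that met a reproducibility threshold, contained 3170 peaks, whose signals span 137 to 22810 around a median of 213. Signal is the peak caller's value for a peak against its control and is not scaled between lists, so ranks within a list are given beside it. The lists hold no read counts, and the depth of each library is unknown.

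Ribosomal proteins are needed in near-equal amounts, and their genes are among the most actively transcribed in growing cells. In Drosophila many start transcription at a TCT initiator, a pyrimidine-rich start element that takes the place of the usual initiator and works with the TBP-related factor Trf2. DREF, which binds the DNA replication-related element (DRE), and M1BP, which binds Motif 1, are known at many of these promoters. Loss of a copy of many of the genes gives the Minute phenotype of short bristles and slow growth. Some members have a paralogue, and several of these copies are known for expression in the germline.

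A member was called bound when a summit lay within 500 bp of any of its transcription start sites (TSSs). In the optimal list 59 of 92 members were bound (64.1%, 95% exact interval 53.5 to 73.9), against 10.3% of all protein-coding genes. With each replicate cut to its own strongest 3170 peaks, 61 members were bound in replicate 2 (66.3%, against 10.6% of all protein-coding genes) and 56 in replicate 3 (60.9%, against 10.5%). The replicate mean was 63.6% ± 3.84 (SD, n = 2). In both replicates at the same time, 51 members were bound (55.4%), against 5.99% of all protein-coding genes. The intervals cover counting error over genes only, and genes are not replicates.

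The relaxed lists, which the authors made as input to the reproducibility step, place a summit at far more genes. There 82 members had a summit in the pooled list (89.1%, against 44.8% of all protein-coding genes), 78 in replicate 2 (84.8%, against 40.9%) and 79 in replicate 3 (85.9%, against 46.7%). Most members outside the optimal list thus still had a weaker summit.

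Among the bound members the strongest was RpS27, a small-subunit protein with a zinc finger. Its summit stood 4 bp downstream of a TSS, with a signal of 759 at rank 201 of the optimal list. It ranked 165 in replicate 2 with a signal of 610, and 449 in replicate 3 with a signal of 144. RpLP0, the base of the acidic stalk that recruits translation factors, followed with a signal of 586 at rank 290, and its summit lay 33 bp upstream of a TSS. Its ranks were 284 in replicate 2 and 379 in replicate 3. RpL7, a large-subunit protein, had a signal of 511 at rank 365 and ranked 369 and 361 in replicates 2 and 3. The promoters of these 3 are printed because they are among the strongest bound. They are Release 6 sequence, 100 bases before the TSS nearest the optimal summit and 20 bases from it on, read along transcription. RpS27 is at chr3R:25247495-25247614 on the minus strand, RpLP0 at chr3L:22075992-22076111 on the plus strand and RpL7 at chr2L:10201000-10201119 on the plus strand. Capitals mark TCT initiator hexamers within 10 bp of the TSS and, in RpLP0, the Motif 1 core.
RpS27: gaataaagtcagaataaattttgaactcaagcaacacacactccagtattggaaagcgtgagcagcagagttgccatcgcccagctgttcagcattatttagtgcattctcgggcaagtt
RpLP0: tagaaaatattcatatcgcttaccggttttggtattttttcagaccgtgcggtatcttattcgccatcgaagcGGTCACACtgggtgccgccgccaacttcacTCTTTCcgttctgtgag
RpL7: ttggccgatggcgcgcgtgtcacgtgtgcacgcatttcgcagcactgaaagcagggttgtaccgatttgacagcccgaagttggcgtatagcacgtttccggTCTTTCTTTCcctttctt
The RpL7 stretch holds a pair of overlapping initiator hexamers, with the C at 3 and 7 bp from the TSS, where 0 is the TSS base. RpLP0 holds 1, with the C at 4 bp. RpS27 has none at this TSS and has 1 at its other annotated TSS.

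Other members among the 12 strongest had signals of 488 to 426. RpL41, which encodes a very short peptide of the large subunit, had 488 at rank 389. RpL14 had 461, RpL28 had 442 and RpL13A had 435, with summits 24, 55 and 76 bp upstream of a TSS. RpS10b had 434 at 25 bp upstream and RpS4 had 430 at 27 bp downstream. RpL24 had 428 with the summit on the TSS base itself, and RpL32, long used as a reference transcript in flies under the name rp49, had 426 at 53 bp upstream. All 12 were among the 3170 strongest peaks of both replicates, with ranks of 590 or better in replicate 2 and 808 or better in replicate 3.

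Bound members were found in each of 5 equal rank bins of the optimal list. Signals of the bound members spanned 142 to 759 around a median of 263, against a median of 235 for the 1386 other bound protein-coding genes. Cut by rank into 5 equal bins, the list held 16, 21, 12, 5 and 5 bound members from the strongest to the weakest bin. That is 27.1% in the strongest bin and 35.6% in the next, against 25.1% and 20.3% of the other bound genes. The highest rank was 201 and the lowest 2977. Before that best rank, in the first 200 ranks, stood 95 of the 1386 other bound genes. This cut falls directly before the best member, RpS27, so the absence of members there follows from its placing. In replicate 2 RpS27 ranked 165. The authors' -log10 q-values of these peaks ran from 2.16 to 3.25.

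**Figure D1:**
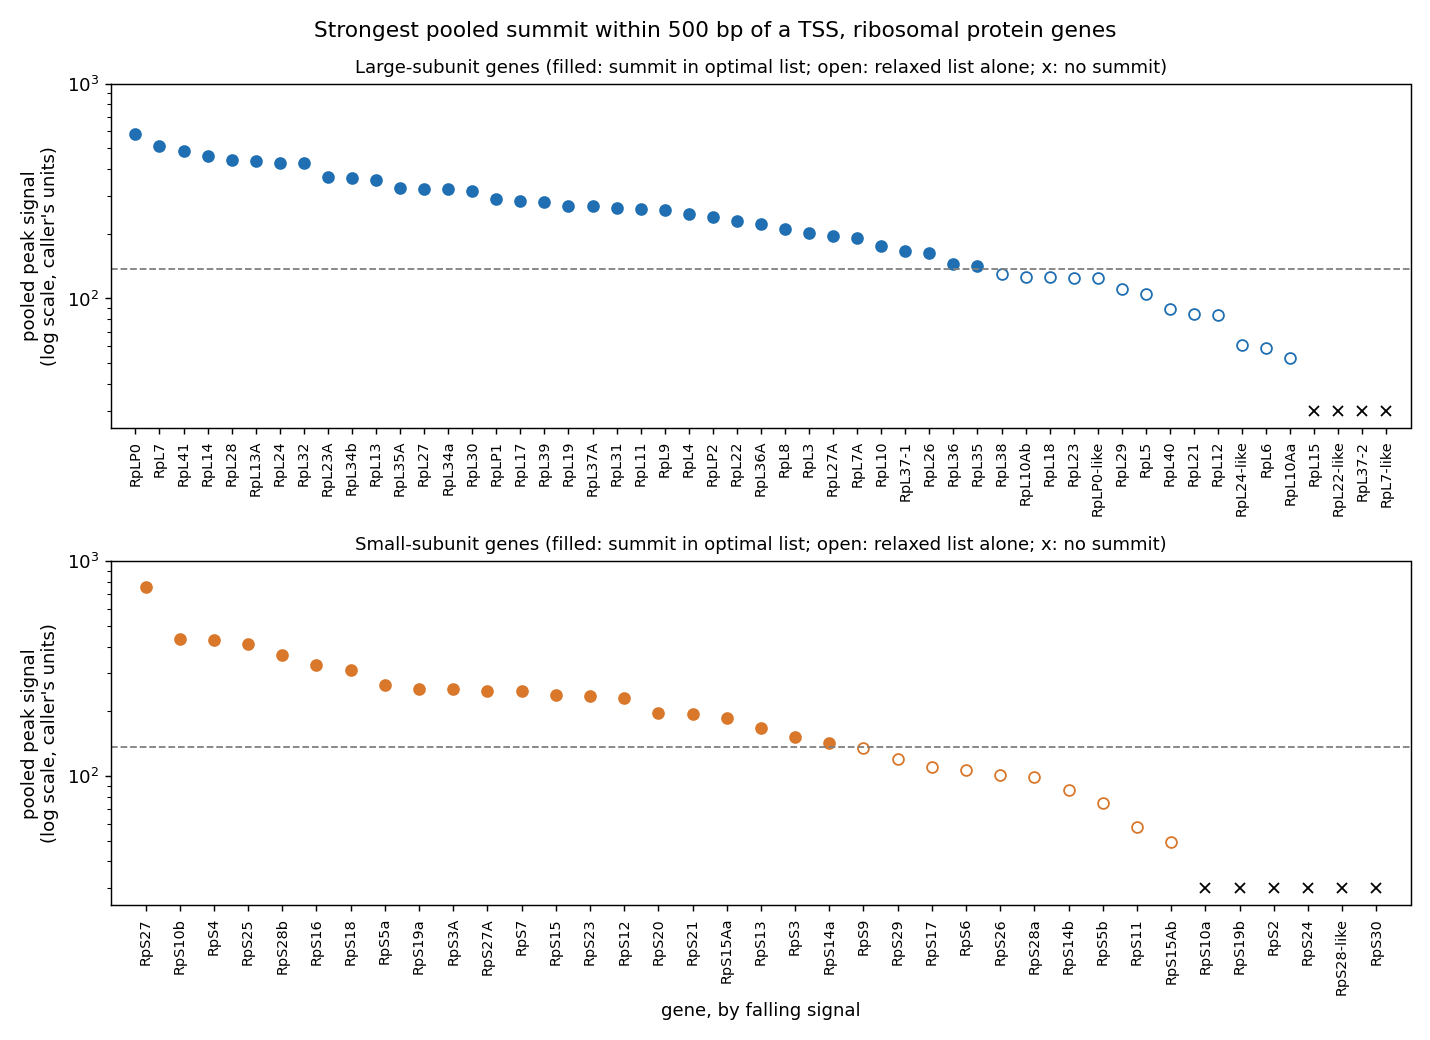
Signal of the strongest pooled summit within 500 bp of a TSS (log scale, peak caller's units) for large-subunit genes (upper) and small-subunit genes (lower), 90 of the 92 members. Filled points are in the optimal list, open points in the relaxed pooled list alone, crosses have no summit, and the dashed line is the lowest signal of the optimal list, 137; RpS27 stands highest at 759.

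Large-subunit members were bound more often than small-subunit members in the optimal list and in both replicates. In the optimal list the counts were 37 of 54 large-subunit members (68.5%, 54.4 to 80.5) and 22 of 38 small-subunit members (57.9%, 40.8 to 73.7). In replicate 2 they were 40 of 54 (74.1%) and 21 of 38 (55.3%), and in replicate 3 they were 37 of 54 (68.5%) and 19 of 38 (50%). The replicate means were 71.3% ± 3.93 for the large and 52.6% ± 3.72 for the small subunit (SD, n = 2 each). The difference of large minus small was 10.6 percentage points in the optimal list, 18.8 in replicate 2 and 18.5 in replicate 3. The intervals of the optimal list overlap, and the difference was not tested, because the members were chosen with their binding known. Median signals of bound members were 281 for the large and 249 for the small subunit. The large-subunit counts include RpL24-like and RpLP0-like, which were not bound in any of these lists. The 65 members without a paralogue include no gene with a -like symbol. Among these 65, 30 of 40 large-subunit members (75.0%) and 16 of 25 small-subunit members (64.0%) were bound.

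The stalk proteins were all bound. Besides RpLP0 these are RpLP1, with a signal of 290, and RpLP2, with 239. RpL11 was bound with a signal of 261, while RpL5, its partner in the 5S ribonucleoprotein, had 105 at rank 5291 of the relaxed pooled list and was not. RpS27A, made as a fusion with ubiquitin, was bound with a signal of 249, and its summit is as near to a TSS of Ip259 as to its own. RpL40, the other ubiquitin fusion, had 88.9 at rank 7398 and was not bound. RpS6, the target of S6 kinase, had 106 at rank 5162. It ranked 2524 in replicate 2 and had no summit in replicate 3. These genes were named after their values were seen.

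Ranks in the replicates followed each other loosely. Over the 72 members with a summit in both relaxed lists, Spearman's rho of the ranks was 0.60, and over the 59 bound members it was 0.45. These are correlations across genes, which are not independent replicates and share the line, the assay and the peak calling. Median ranks of bound members were 1116 in replicate 2, with a range of 165 to 5590, and 959 in replicate 3, with a best rank of 287. Of the 59, 51 were among the 3170 strongest peaks in both replicates. In replicate 2 alone were 6, among them RpL35, RpL4, RpS14a, RpS21 and RpS5a. In replicate 3 alone were 2, RpS13 and RpS3.

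RpS21, of the small subunit, ranked 1732 in replicate 2 with a signal of 138 and 7401 in replicate 3 with a signal of 41.1. RpS5a, also of the small subunit, ranked 850 and 4846. RpS13 went the other way, at 5590 in replicate 2 and 1380 in replicate 3, and RpS3, at the mRNA entry site, ranked 4815 and 1284. Outside the optimal list, RpL10Ab, RpL23, RpL38 and RpS6 were among the strongest 3170 of replicate 2, and RpL18, RpL7-like and RpS29 among those of replicate 3. RpL18 ranked 964 in replicate 3 and 8825 in replicate 2. No list held the remaining 26 members within these limits.

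**Figure D2:**
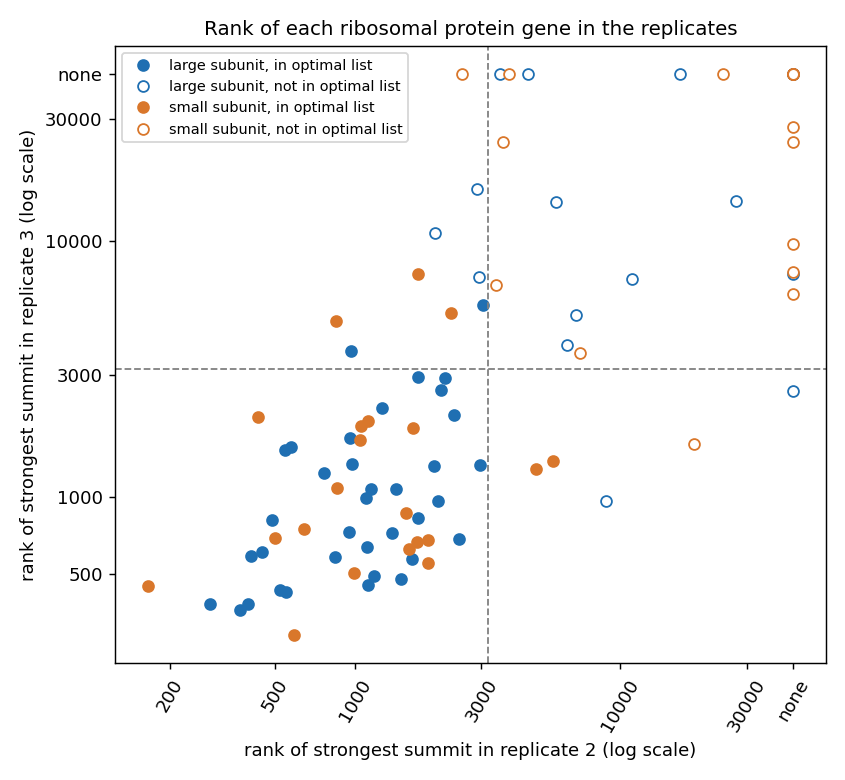
Rank of the strongest summit of 90 of the 92 ribosomal protein genes in replicate 2 (horizontal) and replicate 3 (vertical), both on log scales, with the strongest at the lower left. Filled points are in the optimal list, dashed lines mark rank 3170 and "none" means no summit in that list; the lower left field holds the 50 filled points drawn that pass in both replicates, and RpS21 lies at 1732 and 7401.

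The summits lay close to the starts. Across the 59 bound members the median position was 14.0 bp upstream of the nearest TSS (-14.0) and the median absolute distance was 28.0 bp. The sign of this median depended on the replicate, with -27.0 bp without replicate 3 and 17.0 bp without replicate 2. Summits within 100 bp of a TSS were found at 53 of 59 members (89.8%), against 347 of the 1066 other bound genes that own the nearest TSS (32.6%). The median absolute distance of those 1066 genes was 148 bp. All 59 members own the protein-coding TSS nearest their summit, RpS27A jointly with Ip259. By annotation 26 summits were upstream of the gene, 25 in an untranslated exon, 7 in an intron and 1 in a coding exon, that of RpS16. Peak widths carry no information on the shape of binding here, since 57 of the 59 peaks had the standard width of 400 bp.

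The summit of replicate 3 lay downstream of that of replicate 2 at most bound members. Both replicates had a summit within 100 bp of the optimal summit at 53 members. Replicate 3 minus replicate 2, signed along transcription, had a median of 45 bp. Replicate 3 was downstream at 42 of 53 members (79.2%, exact interval 65.9 to 89.2), upstream at 10 and at the same base at 1. At RpS16 the positions were 93 bp in replicate 3 and -64 bp in replicate 2, a difference of 157 bp. At RpL36A they were 158 and 20 bp. RpL26 and RpL34a went the other way by -65 bp each.

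The other bound genes had a smaller signed median, with both directions nearly balanced. Offsets of opposite sign cancel in such a median, so it does not show that their replicate summits lay closer together. For the 289 of 347 other bound genes with a summit within 100 bp of their own TSS and both replicates measured, the median was 4.00 bp. Replicate 3 was downstream at 152 of them (52.6%) and upstream at 132. In genome coordinates, without regard to strand, the median over 911 other bound genes was 1.00 bp. Among members the offset was larger on the minus strand, with a median of 46.5 bp and 28 of 30 downstream (93.3%), than on the plus strand, with 25 bp and 14 of 23 downstream (60.9%). It was 40 bp for the large and 45.5 bp for the small subunit. The commonest peak width was 420 bp in replicate 3 and 396 bp in replicate 2. The part of peak calling, fragment size and strand in the offset was not tested, and the comparison was made after the positions were seen.

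**Figure D3:**
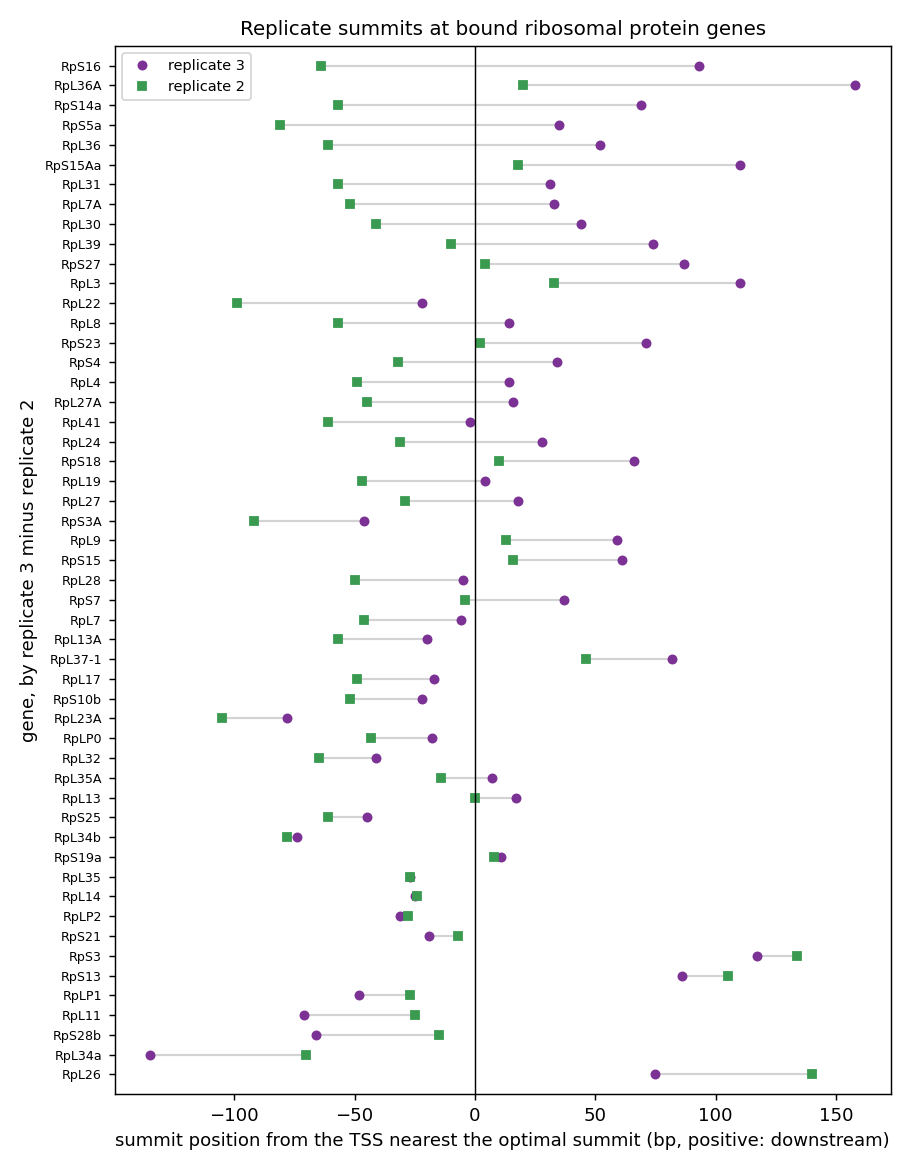
Summit position in replicate 3 (circles) and replicate 2 (squares) relative to the TSS nearest the optimal summit (bp, positive values downstream), for 52 of the 53 bound members with both summits within 100 bp of the optimal one. Rows are ordered by replicate 3 minus replicate 2; circles lie right of squares at 41 genes, most of all at RpS16.

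The TCT initiator was searched on the sense strand as TCTTTC, also allowing C as its opening base and T as its closing base, with the C before the 3 T bases within 10 bp of any TSS. It was present at 75 of 92 members (81.5%), against 571 of all 13968 protein-coding genes (4.09%). It stood at 54 of 59 bound members (91.5%) and at 21 of 33 unbound members (63.6%). By subunit it stood at 46 of 54 large-subunit members (85.2%) and 29 of 38 small-subunit members (76.3%). Of members with the initiator 54 of 75 were bound (72%), and of members without it 5 of 17 (29.4%). The gap was narrower among the 65 members without a paralogue, where 42 of 58 with the initiator (72.4%) and 4 of 7 without it (57.1%) were bound. Outside the group, 83 of 496 genes with the initiator were bound (16.7%), against 1303 of 13380 without it (9.74%).

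Other core promoter motifs were counted on both strands from 250 bp before to 50 bp after the TSS of each gene's longest transcript. The full DRE, TATCGATA, was in 30.4% of member promoters, against 8.98% of all protein-coding promoters. It was in 32.2% of the 59 bound and 27.3% of the 33 unbound members. The Motif 1 core, GGTCACAC, was in 14.1% of member promoters and 7.46% of all. It was in 15.3% of bound and 12.1% of unbound members. The match printed above for RpLP0 is not among them, since its longest transcript starts at another TSS. The E-box CACGTG, the core site of Myc and Max, was in 12% of member promoters and 4.25% of all, and in 10.2% of bound and 15.2% of unbound members. CGATA, the core of the site of the insulator protein BEAF-32, which is also part of the DRE, was in 71.7% and 46.7%, and in 71.2% of bound and 72.7% of unbound members. The TATA box TATAAA was in 45.7% of member promoters and 45.3% of all, and in 42.4% of bound and 51.5% of unbound members. GAGAGAG, the repeat bound by the GAGA factor, was in 0 of 92 member promoters, which allows a share of up to 3.26%, against 6.24% of all promoters. TGCATA, the su(Hw) core, was in 14.1% of member promoters and 15.4% of all. It was in 12 of 59 bound members (20.3%) and 1 of 33 unbound members (3.03%). CAGCTG was in 9.78% of member promoters and 17.9% of all, and in 6.78% of bound and 15.2% of unbound members. These differences were not tested.

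The same motifs were counted in windows of 201 bp centred on the optimal summits. The DRE was in 14 of 59 member windows (23.7%), against 2.61% of the 1150 other optimal windows whose summit lies within 500 bp of a TSS. Against the 347 other genes with a summit within 100 bp of their own TSS, which match the members better in position, the share was 6.05%. The Motif 1 core was in 13.6% of member windows, 1.74% of the 1150 and 2.88% of the 347. CACGTG was in 13.6%, 2.17% and 1.73%. The TATA box was less frequent in member windows, at 15.3%, than in the 1150, at 37.2%, and in the 347, at 28.8%. The median GC content was 44.3% in member windows, 35.3% in the 1150 and 40.8% in the 347, and its part in these shares was not tested. A match is a run of letters and does not show that a factor was bound there.

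Among 15 paralogue pairs of 13 families, exactly 1 gene was bound in 12 pairs, both in 1 and neither in 2. The 27 genes in pairs were bound in 13 cases (48.1%), against 46 of the 65 members without a paralogue (70.8%). RpL34a and RpL34b were bound alike, with signals of 323 and 364. Neither RpL10Aa nor RpL10Ab was bound, with signals of 52.8 and 126, and neither RpS28-like nor RpS28a, while RpS28b was bound with a signal of 366. In the other families the copies differed. RpL22 had a signal of 230 and RpL22-like, known for expression in the testis, had no summit. RpL24 had 428, and RpL24-like, whose yeast counterpart Rlp24 is an assembly factor, had 60.6. RpLP0 had 586, and RpLP0-like, related to the yeast assembly factor Mrt4, had 124. RpL7 and RpL37-1 had 511 and 166, while RpL7-like and RpL37-2 had no pooled summit. RpS10b had 434 and RpS19a had 253, while RpS10a and RpS19b had none.

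**Figure D4:**
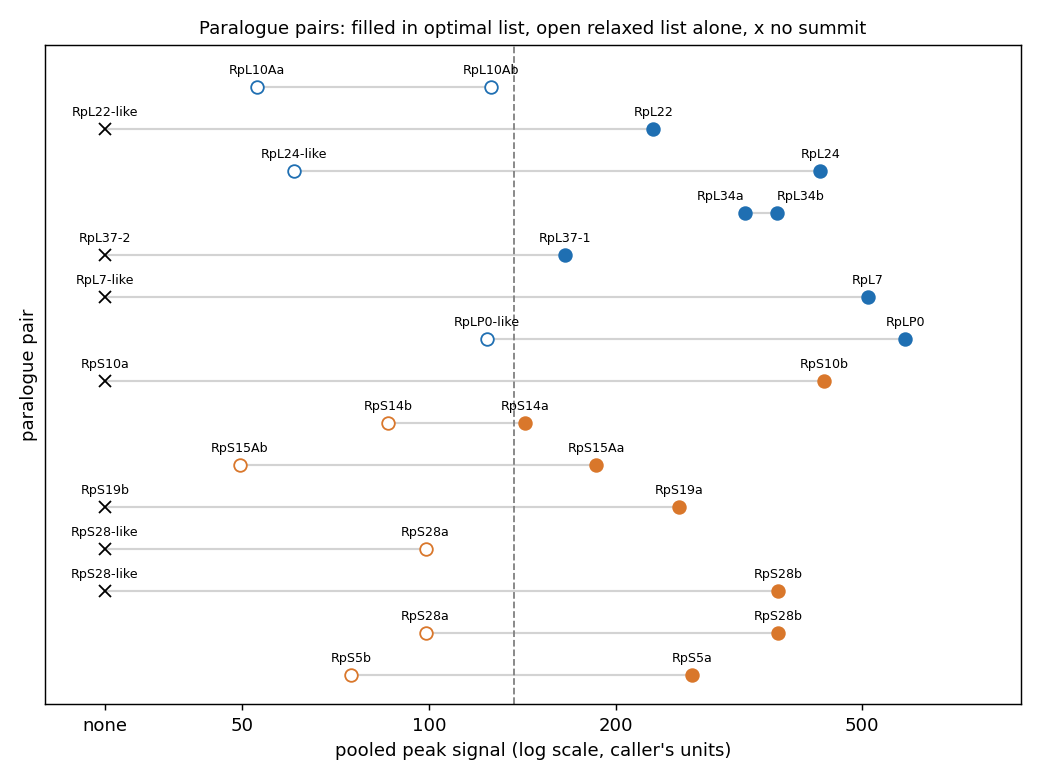
Signal of the strongest pooled summit (log scale, peak caller's units) for both genes of each of the 15 paralogue pairs. Filled points are in the optimal list, open points in the relaxed pooled list alone, crosses at "none" have no summit, and the dashed line is the lowest optimal signal, 137; RpL34a and RpL34b are the only pair with both points filled.

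The pairs RpS14a with RpS14b and RpS5a with RpS5b show such a split with the promoter sequence in view. RpS14a and RpS14b start 1156 bp apart on the X chromosome and share 97.8% of their coding sequence, while their promoters share 50.5%. RpS14a was bound with a signal of 143 at rank 2966, 28 bp upstream of its TSS, and RpS14b had 86.0 at rank 7981, 7 bp upstream. Their replicate ranks were 2300 and 3807 in replicate 2, and in replicate 3 RpS14a ranked 5235 while RpS14b had no summit. RpS5a had a signal of 266 at rank 1105, and RpS5b, known for its use in the ovary, had 74.8 at rank 11006 with the summit 267 bp downstream of its TSS. RpS14a is at chrX:7933642-7933761 and RpS14b at chrX:7934798-7934917, both on the plus strand. RpS5a is at chrX:17148245-17148364 and RpS5b at chr3R:14901544-14901663, both on the minus strand. The stretches run as before, for RpS14b and RpS5b around the TSS nearest the pooled summit, and capitals mark TCT initiator hexamers and, in RpS14a, the DRE.
RpS14a: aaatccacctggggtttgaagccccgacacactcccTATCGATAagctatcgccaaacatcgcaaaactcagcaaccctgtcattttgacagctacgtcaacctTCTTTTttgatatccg
RpS14b: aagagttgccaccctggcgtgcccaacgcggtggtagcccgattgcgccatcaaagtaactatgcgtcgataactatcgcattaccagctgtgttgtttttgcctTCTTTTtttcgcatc
RpS5a: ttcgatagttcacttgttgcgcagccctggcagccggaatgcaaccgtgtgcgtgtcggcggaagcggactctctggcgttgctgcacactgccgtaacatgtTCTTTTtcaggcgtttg
RpS5b: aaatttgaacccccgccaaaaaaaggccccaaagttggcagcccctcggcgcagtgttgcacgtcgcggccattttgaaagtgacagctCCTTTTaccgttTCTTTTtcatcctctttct
All 4 hold an initiator hexamer within 10 bp of the TSS, at the bound and at the unbound copy. The DRE stands before RpS14a and not in the RpS14b stretch.

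RpS15Aa and RpS15Ab share 98.2% of their coding sequence, and RpS15Aa was bound with a signal of 186 while RpS15Ab had 49.5 at rank 28652. At pairs this alike, reads within the genes can be shared out or dropped by the alignment, and values there are uncertain. The other pairs share 45.9% to 78.2% of their coding sequence.

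The members next to the threshold had nearly equal signals. Just inside stood RpL36 with a signal of 145, RpS14a with 143 and RpL35 with 142. Just outside stood RpS9 with 135 at rank 3247, RpL38 with 130 at rank 3485 and RpL10Ab with 126 at rank 3641. Of the 33 unbound members, 23 had a summit in the relaxed pooled list, at ranks of 3247 to 28652 with a median of 5683 and signals of 49.5 to 135. Of these, 13 ranked before 6000.

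The 10 members with no pooled summit within 500 bp were RpL15, RpL22-like, RpL37-2, RpL7-like, RpS10a, RpS19b, RpS2, RpS24, RpS28-like and RpS30. Of these 6 belong to paralogue pairs, and RpL15, RpS2, RpS24 and RpS30 do not. RpS2 lies at the mRNA entry site of the small subunit, and RpS30 is made as a fusion with a ubiquitin-like protein. RpL15, at 27267255 to 27268445 on 3L, is 4171783 bp from the nearest optimal summit, and its nearest pooled summit is 563 bp from a TSS with a signal of 62.6. How well reads align in this stretch was not tested, so a missing summit there does not show missing binding. For RpS30 the nearest pooled summit is 969 bp away, with a signal of 55.7. RpL7-like had a summit in replicate 3 at rank 2592 and none in replicate 2.

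The promoters of RpL15 and RpS30 are shown because they hold an initiator or a DRE without a pooled summit. RpL15 is at chr3L:27267156-27267275 and RpS30 at chr3R:20850416-20850535, both on the plus strand of Release 6. The stretches start 100 bases before the TSS of the longest transcript and end 20 bases on. Capitals mark the TCT initiator hexamer in RpL15 and the DRE in RpS30.
RpL15: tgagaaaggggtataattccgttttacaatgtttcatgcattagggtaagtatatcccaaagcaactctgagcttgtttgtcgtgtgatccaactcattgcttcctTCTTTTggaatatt
RpS30: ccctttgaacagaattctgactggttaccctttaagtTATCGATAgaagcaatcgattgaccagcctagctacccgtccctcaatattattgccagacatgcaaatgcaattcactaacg
RpL15 has the C of the initiator 7 bp from its TSS, and RpS30 has the full DRE. No initiator hexamer stands at the printed TSS of RpS30, but this gene has one at another annotated TSS. Over all members, the DRE was in 32.2% of bound and 27.3% of unbound promoters. Of members with it 67.9% were bound in the optimal list, 71.4% in replicate 2 and 71.4% in replicate 3. Of members without it these shares were 62.5%, 64.1% and 56.2%. A link of the DRE to binding was not tested.

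Several bound members share a promoter region with another gene. A TSS of another protein-coding gene on the opposite strand lay within 500 bp at 36 of 92 members, against 27.8% of all protein-coding genes. Of these 36 members 27 were bound (75.0%), and of the 56 without such a neighbour 32 (57.1%). In 26 of the 27 cases the neighbour also had an optimal summit within 500 bp, so that the summit cannot be given to the member by distance to this limit alone. The neighbour of RpL13 is Dref, the gene of the DRE-binding factor. Their summit at 9967317 on 2L had a signal of 355 at rank 667 and lay 4 bp from the RpL13 TSS and 88 bp upstream of that of Dref. Other such neighbours were Nelf-E at RpL14, eIF1 at RpL28 and Mybbp1A at RpL36, named after their values were seen.

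Small nucleolar RNA genes, which lie in introns of many ribosomal protein genes, were inside 28 members, 74 of them in all. Of these hosts 21 were bound (75.0%), against 38 of the 64 other members (59.4%). By chromosome arm, members were bound at 12 of 19 on 2L, 11 of 21 on 2R, 9 of 14 on 3L, 14 of 23 on 3R and 12 of 14 on X. The shares of all protein-coding genes bound on each arm were not counted. RpS3A, the only member on chromosome 4, was bound with a signal of 253, and it accounts for 1 of the 9 optimal summits on that chromosome. RpS16 and RpS5a had 2 optimal summits each, RpS16 with signals of 327 and 162 and RpS5a with 266 and 142.

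Genes that make or regulate ribosomes were set beside the members. The small-subunit protein gene sta, which the symbol rule leaves out, was bound with a signal of 146 at rank 2852, and it ranked 4454 in replicate 2 and 1567 in replicate 3. Of 36 ribosome biogenesis genes found, from 40 listed, 8 were bound (22.2%), with 8 in replicate 2 and 7 in replicate 3. The strongest were Ns2, a nucleostemin-family GTPase, with a signal of 656, eIF6, which keeps the large subunit from joining early, with 448, Rrp1 with 284, and Polr1D, a subunit of RNA polymerase I, with 280. The list was made by symbol, and in the fly Rrp1, pes, Mat1 and bor name genes of other roles, Rrp1 a DNA repair enzyme and pes a scavenger receptor. Without these, left out after the values were seen, 6 of 32 were bound (18.8%), against 10.3% of all protein-coding genes. Of 12 regulators of ribosomal protein transcription 6 were bound (50%), with 7 in replicate 2 and 5 in replicate 3. They were led by Dref with 355, M1BP with 292, Trl, the GAGA factor, with 230, and Mnt, a repressor that pairs with Max, with 201. The Dref summit is the one that also counts for RpL13, so it is not separate from the members. TFAM, a mitochondrial factor that is no such regulator, was on this list and was not bound, and without it the share was 6 of 11 (54.5%).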

How the data were processed

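The authors deposited 8 peak lists from 2 ChIP-seq samples. The 4 on dm6 were used here: an optimal list, and relaxed lists of replicate 2, of replicate 3 and of both pooled, each of 30000 peaks. Lists on dm3 were not used. Per the labels' README text, relaxed peaks were called against a control alignment, and the optimal list was made from them by an irreproducible discovery rate threshold. No header or label read here names the peak caller, the aligner, their versions or that threshold. The deposited lists give each peak a signal against its control, not scaled between lists, a -log10 q-value, and a summit offset in bp, all as the authors made them. They hold no counts, so depth is unknown.

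Summit positions, 1-based, were joined to the TSSs of the Ensembl release 115 annotation (FlyBase release 6.54) and the Release 6 genome, with Python 3.11.15, numpy 2.4.6, scipy 1.17.1, Biopython 1.88 and matplotlib 3.10.9. A gene was bound with a summit within 500 bp of any TSS. For each replicate the N strongest peaks, N = 3170, were taken. Intervals are 95% exact (Clopper-Pearson) and cover counting error only, and the limit for a count of 0 is 3 counts. Summit assignment was tested on simulated data. Coding and promoter identity are from global alignments of the longest transcripts.

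The members and lists were chosen with earlier results of these data known, so no test was made. Named genes are the 12 of highest optimal signal, 3 on each side of the threshold, every paralogue pair, every member without a pooled summit, members on which the lists differ and up to 4 bound genes of each comparison list. The 6-mers, the replicate offset and the shares by promoter trait were chosen after seeing the data. Alternatives were 250 and 1000 bp, the peak interval over a TSS, the 1585 strongest peaks, each summit given to its nearest TSS, each replicate alone, and 5 and 20 bp for the initiator. Single values of 2 members are not reported here. Those alternatives added after seeing the data are named as such with their values.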

Additional observations from a re-analysis of the deposited data

How the results depend on the processing

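The count of bound members was 59 with 250 bp, 1000 bp and the nearest-TSS rule, 58 with the peak interval over a TSS, 43 with the 1585 strongest peaks, 61 without replicate 3 and 56 without replicate 2. Pairs with exactly 1 bound gene ran from 9 to 13 over the same alternatives. The median summit position, -14.0 bp, was -27.0 bp without replicate 3 and 17.0 bp without replicate 2, each over the members bound in that setting, so its sign depends on the replicate. Members with a TCT initiator were 55 at 5 bp, 82 at 20 bp and 56 at the TSS of the longest transcript, against 2.13%, 7.62% and 2.82% of all protein-coding genes. Alternatives chosen after seeing the data moved the large minus small difference of 10.6 percentage points to 11 without paralogues, 12.4 with the 1585 strongest peaks and a range of 18.5 to 18.8 with a replicate left out; the cause was not tested. The share of members with the replicate 3 summit downstream, 79.2%, was, also in alternatives chosen after seeing the data, 69.6% at members with 1 TSS, 78.6% at those with no opposite-strand TSS within 500 bp, 60.9% on the plus strand and 93.3% on the minus strand; the cause was not tested. No paired analysis was possible because the series has 1 group. Unknown depth, 2 replicates, whole embryos and no control group limit what absence from a list shows.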

Other observations

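Short sequences shared by the members' summit windows were counted after the data were seen, over 1955 distinct 6-mers with reverse complements merged, so they are given as values. Against the 1150 other optimal promoter windows, the 6-mer with the widest gap was CCGGAA, letters that are part of the sites of many ETS factors. It was in 28 of 59 member windows (47.5%), against 63 of the 1150 other optimal promoter windows (5.48%) and 37 of the 347 with a summit within 100 bp of their own TSS (10.7%). In promoters it was in 27 of 59 bound members (45.8%) and 8 of 33 unbound members (24.2%), against 6.67% of all protein-coding promoters. CGGAAA, which overlaps it, was in 54.2% of member windows, 12.9% of the 1150 and 20.7% of the 347. AAAGAA, the reverse complement of TTCTTT and part of the pyrimidine run at TCT starts, was in 66.1%, 25% and 20.5%. CACACT was in 40.7%, 13.4% and 19.3%, and TATCGA, part of the DRE, in 39.0%, 12.2% and 18.7%. The windows are short and GC-richer than the others, at medians of 44.3% in member windows, 35.3% in the 1150 and 40.8% in the 347, and the part of base composition was not tested.

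The initiator hexamers were rarer in paired members, at 17 of 27 (63.0%), than in members without a paralogue, at 58 of 65 (89.2%), and stood at 5 of the 10 members with no pooled summit.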
